A study of Mus musculus with 10 samples.

Results

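Interleukin-12 family cytokine subunit genes were followed in mouse peritoneal macrophages, together with Il15 and its receptor chain Il15ra. The members are a list of names, drawn up with earlier results of these data known: Il12a, Il12b, Il23a, Il27, Ebi3, Il15 and Il15ra were matched by NCBI gene identifier to their rows, 7 of the 29700 gene rows used. Of these 7 genes, 6 had enough reads to be tested among 12654 genes, and Il23a did not. Bulk RNA-seq had been performed on 10 libraries, 5 control and 5 ox-LDL, to compare gene expression between control macrophages and macrophages exposed to oxidized low-density lipoprotein (ox-LDL), the modified lipoprotein that macrophages take up in atherosclerotic lesions. All mice were C57BL/6 and 8 weeks old, and thioglycollate broth had been injected to draw macrophages into the peritoneal cavity, so that the cells are mostly recruited and not resident macrophages. By the sample labels, the ox-LDL group received lipopolysaccharide (LPS, a bacterial cell wall product) at 100 ng/ml and then ox-LDL at 100 µg/ml, with 16 h of ox-LDL exposure. The control cells carry the label untreated. A line on treatment that is the same for all samples names ox-LDL alone, and whether the control cells received LPS is not settled. By the labels, effects of LPS and of ox-LDL cannot be told apart in any value that follows. The sources do not say whether the libraries of a group came from separate mice, so the p-values measure the spread between these libraries, which may be technical.

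Cytokines of the IL-12 family are pairs of an alpha chain and a beta chain made from separate genes, and chains are shared between cytokines. The p35 chain (Il12a) and the p40 chain (Il12b) make IL-12, which drives interferon-gamma production by T and NK cells. The p40 chain pairs with p19 (Il23a) in IL-23, which sustains IL-17-producing T cells, while p28 (Il27) pairs with EBI3 (Ebi3) in IL-27 and p35 pairs with EBI3 in IL-35. IL-15 belongs to another family and was followed beside them: macrophages display it on the cell surface bound to the IL-15 receptor alpha chain (Il15ra) for NK cells and memory T cells.

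The authors deposited an estimated read count and a length-scaled value (FPKM) per gene and library. Total counts were 20094647 to 20687289 in the control and 19257131 to 20358017 in the ox-LDL libraries. Levels of a gene are given below as CPM, counts scaled to a common library total after TMM normalization, which corrects for a few abundant genes taking up a library. The TMM factor was lowest in ox-LDL replicate 2, at 0.593, and 0.837 to 1.19 in the other 9 libraries. Genes were called where the adjusted p was under 0.01 in edgeR's quasi-likelihood test, with Benjamini-Hochberg adjustment over all 12654 genes. A log2 fold change is that of ox-LDL over control and is given ± its standard error (SE). All 10 macrophage markers examined were expressed and tested, and their summed level was 19970 to 47170 CPM in controls and 12690 to 48160 CPM after treatment (two-sided exact permutation test over libraries, p = 0.262). Lyz2 made up most of that sum, at means of 27790 and 17450 CPM. Dendritic cell markers summed to 60.4 to 96.0 CPM and 26.9 to 147 CPM (exact permutation test, p = 0.897), with at most 5 counts of Flt3 and 8 of Xcr1 in any library. Most of that sum was Cd83, at means of 75.37 CPM in controls and 59.55 CPM in ox-LDL libraries, so it says little of the other markers. Those went different ways, with Ccr7 and Clec9a higher and Cd209a lower, as given below.

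Of the 6 member genes tested, 5 rose after treatment and none fell. Il12a, Il12b, Il27, Ebi3 and Il15ra rose, and all 5 had every ox-LDL library above every control library in CPM. Il15 had a lower mean in the ox-LDL group but did not pass. Over all genes tested, 14.7% were called, 9.4% as higher and 5.35% as lower, and 11.6% had ox-LDL libraries all above and 9.11% all below the control libraries. The median log2 fold change was 4.03 over the 6 members and 0.10 over all genes tested. Of all genes called, 1189 were higher and 677 lower, whereas limma on log2(FPKM + 1) gave 555 higher and 750 lower, with a median over all genes of -0.14. With library size alone in place of TMM, 704 were higher and 583 lower, and Il12a, Il12b, Il27 and Il15ra were called as higher under each of these settings. Il12a, Il12b and Il27 met the filter on low counts through the ox-LDL libraries alone and would have been left out had they been as low there as in controls, so these counts and the median are a description. In bulk RNA, more transcript per cell and more cells that express a gene cannot be told apart.

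**Figure D1:**
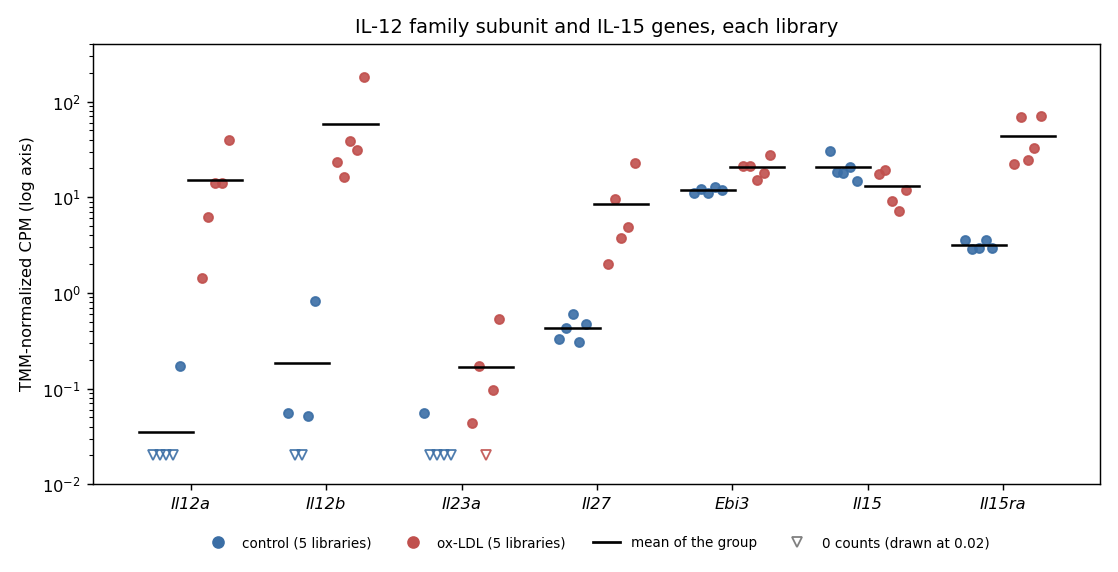
TMM-normalized CPM (log axis) of the 7 genes in each of the 5 control (blue) and 5 ox-LDL (red) libraries, with the group mean as a bar and libraries at 0 counts drawn as open triangles at 0.02. Il12a and Il12b were near 0 in the controls and at 1.44 to 39.4 CPM and 16.1 to 182 CPM in the ox-LDL libraries, whereas the Il15 points of both groups overlap.

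Il12a, the p35 chain of IL-12 (NCBI gene 16159, chr3:68494566-68502469 on the plus strand of mm9), had no read in 4 of the 5 controls and reads in every ox-LDL library. Its counts were 0, 0, 0, 0 and 4 in control replicates 1 to 5 and 33, 72, 291, 294 and 659 in ox-LDL replicates 1 to 5. These gave 0 CPM in 4 controls and 0.174 CPM in control replicate 5, against 1.44, 6.17, 14.2, 14.1 and 39.4 CPM in the ox-LDL libraries. The lowest treated library was thus above the highest control, and the treated libraries spread over 27.4-fold. The mean rose from 0.035 ± 0.078 to 15.0 ± 14.6 CPM (SD, n = 5 each), and the fitted log2 fold change was 8.44 ± 1.11 (SE, adjusted p = 2.42e-04 by edgeR). Because the control group held 4 counts in all, the size of this change is loosely fixed. The ratio of summed counts was 390 with a 95% counting interval of 152 to 1432. Counting intervals, here and below, treat reads as independent and leave out the spread between libraries. By the standard error of the edgeR fit, the 95% interval was 6.26 to 10.6 on the log2 scale. Without control replicate 5 the other controls held 0 counts. Taking a floor of 3 counts over the control group, the level was at least 408-fold higher after treatment. Such at-least values, here and below, rest on summed counts and leave out the spread between libraries and the counting error of the treated reads. Without ox-LDL replicate 5 the ratio was 243 (94.6 to 895), and with both replicate 5 libraries left out the level was at least 255-fold higher.

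Il12b, the p40 chain shared by IL-12 and IL-23 (NCBI gene 16160, chr11:44213565-44227535, plus strand of mm9), was near 0 in 4 of the 5 controls and had at least 188 counts in every ox-LDL library. Control replicates 1 to 5 held 1, 0, 0, 1 and 19 counts, and the ox-LDL replicates 537, 188, 788, 654 and 3039. In CPM the controls were at 0.0553, 0, 0, 0.0515 and 0.825 and the ox-LDL libraries at 23.4, 16.1, 38.4, 31.3 and 182. The 2 libraries numbered 5 were the highest of their groups, and ox-LDL replicate 5 alone held 58.4% of the treated counts. The mean rose from 0.186 ± 0.358 to 58.1 ± 69.5 CPM (SD, n = 5 each), with a log2 fold change of 8.19 ± 1.10 (SE, adjusted p = 2.77e-04 by edgeR). By that standard error the 95% interval was 6.03 to 10.35 on the log2 scale. Its summed counts differed 287-fold (95% counting interval 187 to 463, without the spread between libraries). The controls other than replicate 5 held 2 counts together, which gave a ratio of 2362 with an interval of 654 to 19510. Leaving out ox-LDL replicate 5 gave 146 (94.9 to 236). The call as higher held in each of these cases, while the size of the change depended on the replicate 5 libraries.

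The counts of control replicate 5 were 0.607% of those of ox-LDL replicate 5 for Il12a, 0.625% for Il12b and 2.92% for Il27. For Il15ra, a gene with reads in every control, this library held 68 counts beside 64 to 69 in the other controls. Ox-LDL replicate 5 had 1174 for Il15ra. Among genes described below, control replicate 5 had 4 reads of Il12rb1, 5 of Ifng and 0 of Il17a and Il22. The matching numbers for ox-LDL replicate 5 were 68, 405, 33 and 41, so the share was not the same for all genes. Whether RNA or reads of ox-LDL replicate 5 were present in control replicate 5 was not tested.

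The RefSeq promoter table of build GRCm38.p6 covered 4 of the 7 genes, all called as higher, with 6 windows of 250 bases before to 50 bases after a start site. A window with motif matches is shown for Il12b, Ebi3 and Il15ra. Il23a, Il27 and Il15 had no entry. The windows were searched on both strands for 5 motifs of factors known to act on cytokine genes: the NF-kB motif (kB), the interferon regulatory factor motif GAAANNGAA, the AP-1 motif TGANTCA, the C/EBP motif TTGCNNAA and the ETS motif GAGGAA. Over all 32851 promoter windows of this length, 8.46% held kB, 8.56% the interferon regulatory factor motif, 7.81% AP-1, 10.8% C/EBP and 28.3% ETS. A match is a run of letters and not a measured binding site. These coordinates are of GRCm38.p6 and are not those of mm9. The 250 bases before the Il12b start site (chr11:44399813-44400062, plus strand) held 2 ETS matches, in capitals, at positions -219 to -214 (TTCCTC, on the minus strand) and -143 to -138 (GAGGAA), counted from the start site.
Il12b: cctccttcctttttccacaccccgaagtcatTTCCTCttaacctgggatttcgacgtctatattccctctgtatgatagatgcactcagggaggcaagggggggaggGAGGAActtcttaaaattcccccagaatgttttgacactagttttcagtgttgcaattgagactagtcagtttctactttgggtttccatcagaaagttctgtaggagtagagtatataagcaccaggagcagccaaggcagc
Neither of the 2 windows of Il12a held any of the 5 motifs in these letters.

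Il23a, the p19 chain that turns p40 into IL-23 (NCBI gene 83430, chr10:127733196-127735140, minus strand of mm9), was almost unread in either group. Controls held 1, 0, 0, 0 and 0 counts and ox-LDL replicates 1, 2, 0, 2 and 9. The groups overlapped, since ox-LDL replicate 3 was at 0 and control replicate 1 held 1 count. With so few reads the gene was left out of the test across genes, and an exact permutation test over the libraries' CPM gave p = 0.0873 (two-sided). The ratio of summed counts was 16.2 with a 95% counting interval of 2.46 to 684, and 7.05 (0.789 to 333) without ox-LDL replicate 5, which held 9 of the 14 treated counts. When no filter on low counts was applied, edgeR gave a log2 fold change of 3.37 ± 1.20 (SE, adjusted p = 0.0659). The counting interval over all libraries lay above 1, but it leaves out the spread between libraries, and neither test over libraries passed. Set per length against its partner, Il12b had 49.9 to 293 times the FPKM of Il23a in the 4 ox-LDL libraries in which Il23a was above 0.

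Il27, the p28 chain of IL-27 (NCBI gene 246779, chr7:133732524-133738455, minus strand of mm9), was low but present in every control and higher in every ox-LDL library. The estimated counts, which need not be whole, were 6.42, 10, 13.6, 6 and 11.1 in control replicates 1 to 5 and 46.2, 113, 77.5, 102 and 379 in the ox-LDL replicates. In CPM the controls were at 0.332, 0.428, 0.599, 0.309 and 0.478 and the ox-LDL libraries at 2.00, 9.68, 3.76, 4.88 and 22.6. The lowest treated library was above the highest control, and control replicate 5 did not stand out. The mean rose from 0.429 ± 0.117 to 8.59 ± 8.35 CPM (SD, n = 5 each), a 19.5-fold change (log2 4.29 ± 0.64, SE, adjusted p = 5.60e-04 by edgeR). Ox-LDL replicate 5 held 52.8% of the treated counts, and without it the log2 fold change was 3.54 (adjusted p = 5.84e-04). On mm9, Il27 overlaps Apobr, a lipoprotein receptor gene on the opposite strand, and the sources do not state whether reads were counted by strand. Apobr went from 43.2 ± 8.85 to 18.8 ± 7.46 CPM (SD, n = 5 each), with a log2 fold change of -1.20 ± 0.27 (SE, adjusted p = 0.00591 by edgeR), opposite in direction to Il27. That call for Apobr was lost in 6 of the 10 fits that left out 1 library each.

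Ebi3, the beta chain of IL-27 and IL-35 (NCBI gene 50498, chr17:56092046-56096444, plus strand of mm9), was the family gene that control macrophages already expressed well. Control levels were 11.2, 12.2, 11.1, 12.9 and 12.0 CPM, with a coefficient of variation of 6.30%. The ox-LDL libraries were at 21.1, 21.2, 15.0, 18.1 and 28.0 CPM, all above the controls. The mean rose 1.74-fold, from 11.9 ± 0.747 to 20.7 ± 4.79 CPM (SD, n = 5 each), or by 0.80 ± 0.18 on the log2 scale (SE, adjusted p = 0.00702 by edgeR). This is the smallest change of the 5 genes called and the only call among them that was lost in a setting in which the gene was tested. Its direction was the same in all 20 alternatives, but the adjusted p was above 0.01 in 14 of them, 8 of which left out a single library (any control, or ox-LDL replicate 1, 4 or 5), with values up to 0.110. On the FPKM scale the groups overlapped: controls were at 9.85, 13.5, 12.6, 12.1 and 13.2 FPKM and ox-LDL libraries at 24.3, 12.0, 15.4, 19.3 and 22.5 FPKM. The overlap came from ox-LDL replicate 2, the library with the lowest TMM factor. The gene Gm16712 overlaps Ebi3 on the other strand and held at most 10.6 counts in any library.

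The Ebi3 window (GRCm38.p6 chr17:55952373-55952622, plus strand) is shown because it alone of the 6 windows held a kB match, in capitals at positions -44 to -35 from the start site, together with an ETS match at -176 to -171.
Ebi3: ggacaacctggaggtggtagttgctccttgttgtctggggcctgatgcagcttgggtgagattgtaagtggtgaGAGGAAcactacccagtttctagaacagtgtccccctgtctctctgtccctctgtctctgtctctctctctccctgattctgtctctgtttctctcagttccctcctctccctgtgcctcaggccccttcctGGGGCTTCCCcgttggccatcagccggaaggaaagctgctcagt
A further kB match lay at positions 15 to 24 after the start, outside the bases printed.

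**Figure D2:**
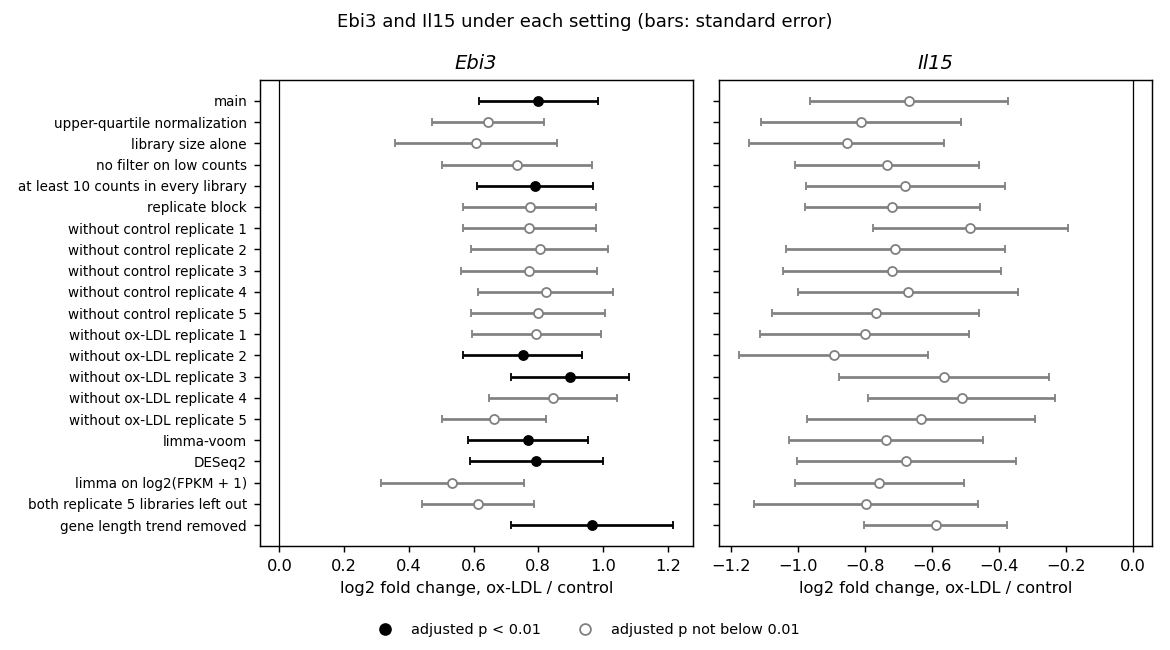
Log2 fold change, ox-LDL over control, with its standard error for Ebi3 (left) and Il15 (right) under the reported fit (main) and 20 alternative settings, filled where the adjusted p was below 0.01. Ebi3 stayed between 0.53 and 0.97 with open points in 14 of the 20 alternatives, and Il15 stayed between -0.89 and -0.48 with open points in all of them.

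Il15 (NCBI gene 16168, chr8:84855536-84927121, minus strand of mm9) had a lower mean in the ox-LDL group, and the difference did not pass the test. Control replicates 1 to 5 were at 30.8, 18.5, 17.9, 20.8 and 14.9 CPM and ox-LDL replicates at 17.4, 19.3, 9.22, 7.13 and 11.8 CPM. The groups overlapped, with ox-LDL replicates 1 and 2 inside the control range and the other 3 ox-LDL libraries below it. The mean was 20.6 ± 6.08 CPM in controls and 13.0 ± 5.23 CPM after treatment (SD, n = 5 each), and the log2 fold change was -0.67 ± 0.30 (SE, adjusted p = 0.116 by edgeR). The exact permutation test gave p = 0.0714 (two-sided). Over the 20 alternatives the log2 fold change ran from -0.89 to -0.48 and the adjusted p from 0.0244 to 0.273.

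Il15ra, the receptor chain that presents IL-15 (NCBI gene 16169, chr2:11626914-11655613, plus strand of mm9), had the lowest adjusted p of the 6 genes tested. Control libraries lay close together at 3.54, 2.87, 2.95, 3.55 and 2.95 CPM. The ox-LDL libraries were at 22.5, 69.0, 24.3, 32.3 and 70.1 CPM, with replicates 2 and 5 well above the other 3. The mean rose 13.7-fold, from 3.17 ± 0.343 to 43.7 ± 24.0 CPM (SD, n = 5 each), or by 3.78 ± 0.37 on the log2 scale (SE, adjusted p = 3.44e-05 by edgeR). It was called as higher in all 20 alternatives, with log2 fold changes of 2.91 to 3.95.

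Il15ra had 2 promoter windows, and the downstream window (GRCm38.p6 chr2:11705462-11705711, plus strand) is shown because it held an AP-1 match in capitals, at positions -30 to -24 from its start.
Il15ra: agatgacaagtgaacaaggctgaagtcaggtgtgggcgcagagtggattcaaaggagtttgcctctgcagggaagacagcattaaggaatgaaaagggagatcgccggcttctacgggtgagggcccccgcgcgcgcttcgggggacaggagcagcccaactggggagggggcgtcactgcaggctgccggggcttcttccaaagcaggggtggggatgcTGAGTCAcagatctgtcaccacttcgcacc
Past the start site of that window, bases 25 to 45 (chr2:11705736-11705756) held an interferon regulatory factor match, in capitals, at bases 31 to 39.
Il15ra, bases 25 to 45 after the start: aaaagcGAAAGCGAAtactcc
The other Il15ra window held an interferon regulatory factor match on the minus strand at positions -149 to -141 and 2 ETS matches.

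Levels of different genes were compared by FPKM, which takes gene length into account. The orders below depend on the length used: the FPKM imply 1800 bases for Il15ra, whereas its exons on mm9 cover 4118. In control libraries the order of mean FPKM was Il15 (16.0 ± 3.12), Ebi3 (12.3 ± 1.45), Il15ra (1.86 ± 0.089), Il27 (0.466 ± 0.144), Il12b (0.088), Il12a (0.036) and Il23a (0.008). The ranges of Il15 and Ebi3 overlapped, Ebi3 was above Il15ra and Il15ra above Il27 without overlap, and the 4 lowest genes overlapped with their neighbours. In ox-LDL libraries the order was Il12b (22.3 ± 23.8), Il15ra (21.7 ± 8.42), Ebi3 (18.7 ± 5.07), Il12a (12.2 ± 11.1), Il15 (9.45 ± 3.99), Il27 (9.02 ± 8.14) and Il23a (0.116 ± 0.146). The first 6 overlapped with their neighbours, and Il23a alone lay apart, below every Il27 value. Il12b came first through ox-LDL replicate 5, since the other 4 libraries gave an order that began with Il15ra (18.4), Ebi3 (17.7) and Il12b (11.9 FPKM). Control macrophages thus held Ebi3 transcript with little of the transcripts of its alpha partners, Il27 and Il12a. After treatment the Il23a transcript was the one that lay apart from the others. Protein chains were not measured in these data.

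The balance of partner chains was followed as the ratio of their FPKM in each library. Il27 and Ebi3 came closer together: Ebi3 was at 19.4 to 35.7 times the FPKM of Il27 in controls and at 0.962 to 7.39 times in ox-LDL libraries. On the scale of log2((FPKM + 0.1)/(FPKM + 0.1)), Il27 over Ebi3 went from -4.48 ± 0.267 to -1.34 ± 1.08 (SD, n = 5 each), a difference of 3.14 (two-sided exact permutation test, p = 0.00794, the smallest that 5 libraries against 5 allow). The balance of Il15 and Il15ra turned over. Il15 was at 6.85 to 11.8 times the FPKM of Il15ra in controls and at 0.216 to 1.13 times in ox-LDL libraries, below it in 4 of the 5. The log2 ratio fell by 4.21, from 3.02 ± 0.289 to -1.19 ± 0.880 (SD, n = 5 each; exact permutation test, p = 0.00794). With 2 pairs tested, the adjusted p was 0.00794 for both. Both ratios are built from gene levels already described, including the rises of Il27 and Il15ra, so these tests are not separate evidence.

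The other pairs held a chain at 0 in some libraries and were not tested. Il12b exceeded Il12a in all 5 ox-LDL libraries, at 7.81, 1.24, 1.30, 1.07 and 2.17 times its FPKM. Replicate 1 thus had Il12b well in excess of Il12a, whereas replicates 2 to 4 held nearly even FPKM. These ratios rest on the gene lengths that the FPKM imply, 1134 bases for Il12a and 2382 for Il12b. Exons on mm9 cover 1370 and 1967 bases, and with those lengths Il12b would lie further above Il12a. The ratio of Il12a to Ebi3, the IL-35 pair, was 0.0617, 0.270, 0.866, 0.704 and 1.31 in the ox-LDL libraries, and in control replicate 5, the control in which Il12a was above 0, it was 0.0136.

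**Figure D3:**
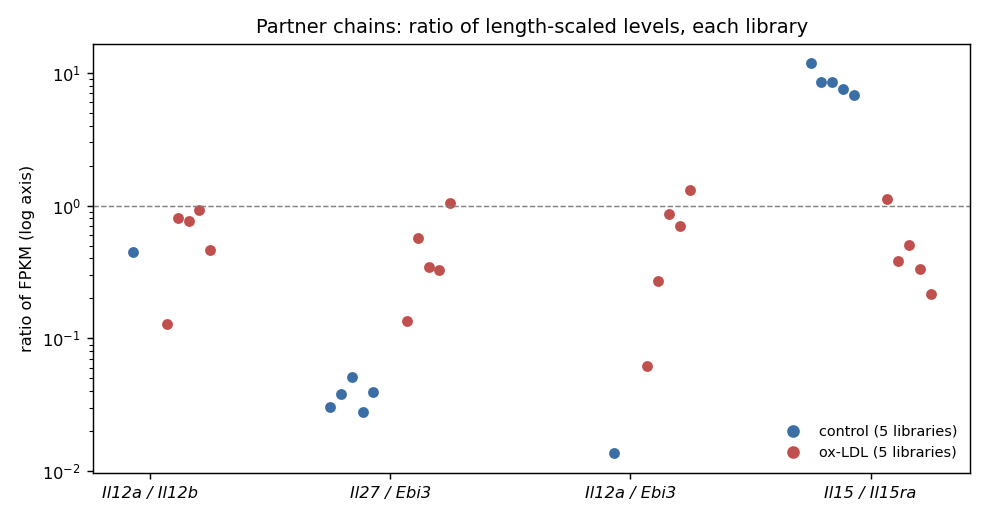
Ratio of FPKM (log axis) of partner chains in each control (blue) and ox-LDL (red) library, with equal levels at the dashed line and ratios with a chain at 0 left out. The Il15 to Il15ra ratio fell from 6.85 to 11.8 in controls to 0.216 to 1.13 in ox-LDL libraries, and the Il27 points moved up towards Ebi3.

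The ox-LDL libraries did not rank alike for all genes. Replicate 5 was highest for Il12a, Il12b, Il23a, Il27, Ebi3 and Il15ra, and in the middle for Il15. Replicate 1 was lowest for Il12a, Il27 and Il15ra, replicate 2 for Il12b, and replicate 3 for Il23a and Ebi3. The highest CPM was 27.4 times the lowest for Il12a, 11.3 times for both Il12b and Il27, 3.12 times for Il15ra, 2.70 times for Il15 and 1.86 times for Ebi3. Il12a, Il12b and Il27, the tested genes that were lowest in controls, thus spread the widest between treated libraries. The other genes with the nearest profile over the 10 libraries were found by the mean absolute difference of centred log2(CPM + 1) values among 11204 genes with a mean of at least 1 CPM. They were Slamf1 (0.189), Tmeff1 (0.301) and Icam1 (0.331) for Il12a, and Cd38 (0.340), Tarm1 (0.351) and Rsad2 (0.359) for Il12b. Ptgs2os2 (0.212), Jdp2 (0.227) and Il6 (0.248) were nearest to Il27, and Gca (0.0931), Uap1 (0.101) and Ccnl1 (0.127) to Ebi3. For Il15 they were Fundc1 (0.137), Asah1 (0.142) and Lcmt1 (0.146), and for Il15ra Gde1 (0.210), Bst1 (0.215) and Slamf6 (0.240). Slamf1, a surface receptor of activated leukocytes, ran from 1.04 to 35.8 CPM over the ox-LDL libraries. A spread like that of Il12a follows from its choice as the nearest profile.

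Among 15 genes for the receptors and signal transducers of these cytokines, 13 were tested, 4 rose, 2 fell and 7 did not pass, with a median log2 fold change of 0.73 (0.10 over all genes tested, of which 9.4% rose and 5.35% fell). Il12rb1 met the filter on low counts through the ox-LDL libraries alone and Il12rb2 through the controls alone, so the direction of both was set once they were tested, and the counts and median are a description. The receptor chains of IL-12 went in opposite directions. Il12rb1, the chain shared by the IL-12 and IL-23 receptors, had 0, 0, 0, 0 and 4 counts in controls and 35, 47, 31, 81 and 68 in ox-LDL libraries (log2 fold change 6.12 ± 0.80, SE, adjusted p = 2.38e-04 by edgeR). Its summed counts differed 75.7-fold (95% counting interval 29.2 to 280), and without control replicate 5, which held all the control reads, by at least 79.3-fold. Il12rb2, the second chain of the IL-12 receptor, had 120, 83, 91, 107 and 51 counts in controls and 10, 2, 13, 9 and 10 in ox-LDL libraries. Every ox-LDL library was below every control, and its level fell by 3.22 ± 0.40 on the log2 scale (SE, adjusted p = 1.67e-04 by edgeR). The IL-23 receptor gene Il23r had at most 5 counts in any library and was not tested.

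Il27ra, the chain particular to the IL-27 receptor, fell by 1.23 ± 0.28 on the log2 scale (SE, adjusted p = 0.00634 by edgeR). Controls were at 6.36, 6.80, 6.46, 6.49 and 3.13 CPM and ox-LDL libraries at 2.61, 2.06, 3.17, 2.87 and 1.73 CPM. Control replicate 5 lay just under ox-LDL replicate 3, so the groups overlapped, and the adjusted p was above 0.01 in 8 of the 10 fits that left out 1 library each (controls 1 to 4, and ox-LDL replicates 1, 3, 4 and 5), with values up to 0.0220 over all alternatives. Il6st, the gp130 chain with which it signals, was at 39.1 ± 8.63 and 38.6 ± 11.1 CPM (SD, n = 5 each), and its log2 fold change was -0.02 with an adjusted p of 0.968 by edgeR. Of the other IL-15 receptor chains, Il2rg (the common gamma chain) rose from 85.1 ± 21.8 to 253 ± 104 CPM (log2 fold change 1.57 ± 0.30, SE, adjusted p = 0.00233 by edgeR), a call that was lost with library size alone and on FPKM, and Il2rb had at most 14 counts in any library.

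Of the kinases and STAT factors behind these receptors, Jak2 (log2 fold change 1.64, adjusted p = 1.12e-04) and Stat3 (1.85, adjusted p = 0.0021) rose by edgeR, and Stat3 lost its call when library size alone was used. Stat4, through which IL-12 acts in T and NK cells, was at 1.37 ± 0.652 and 1.89 ± 0.650 CPM (SD, n = 5 each), with a log2 fold change of 0.46 ± 0.38 (SE, adjusted p = 0.405 by edgeR). Jak1 (0.81), Jak3 (0.78), Tyk2 (0.15), Stat5a (0.73) and Stat5b (0.62) did not pass either.

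Of 17 transcription factors known to act on IL-12 family genes, all were tested, 6 rose, 1 fell and 10 did not pass, with a median log2 fold change of 0.46 (0.10 over all genes tested, of which 9.4% rose and 5.35% fell). The interferon regulatory factors Irf1 and Irf8, activators of Il12a, Il12b and Il27, rose by 4.70 and 3.24 on the log2 scale. Irf1 was at 18.4 to 31.7 CPM in controls and 263 to 1168 CPM in ox-LDL libraries, and Irf8 at 91.9 to 141 CPM and 353 to 1749 CPM. Neither overlapped between the groups. Nfil3, a repressor of Il12b in macrophages, rose by 3.03 on the log2 scale, and Cebpb (2.19), Nfkbiz (1.98) and Batf (1.96) rose as well, with adjusted p values of 2.14e-05 to 8.26e-04 by edgeR over the 6 that rose. Maf, a repressor of Il12 genes, fell by 1.64 (adjusted p = 0.00189 by edgeR). The NF-kB subunits were at log2 fold changes of 1.03 for Rela (adjusted p = 0.0290), 0.97 for Nfkb1 (0.0330) and 0.46 for Rel (0.104) by edgeR and did not pass. Irf3, Irf5, Spi1, Batf3, Fos, Jun and Atf3 did not pass either, with values from -0.83 to 0.43.

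**Figure D4:**
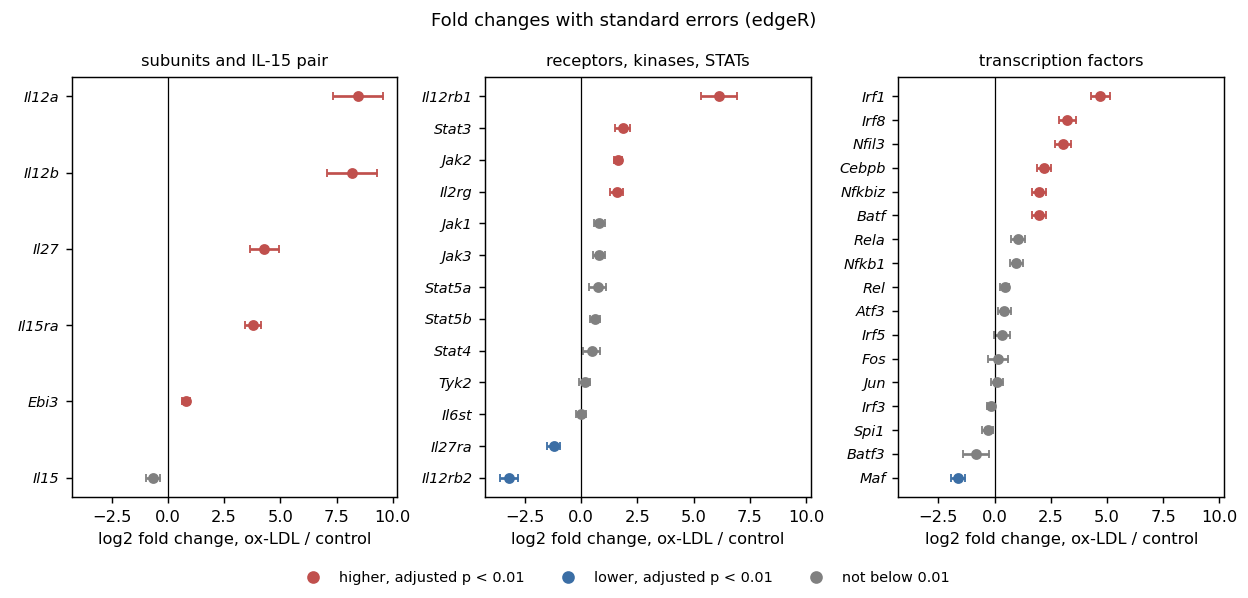
Log2 fold change, ox-LDL over control, with its standard error for the 6 member genes tested (left), the 13 receptors and signal transducers tested (middle) and the 17 transcription factors (right), coloured by the call at an adjusted p of 0.01. Il12rb1 (6.12) and Il12rb2 (-3.22) lie at opposite ends of the middle panel, and Irf1 (4.70) leads the right panel.

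Genes on which these cytokines act in lymphocytes were mostly unread. Of 11 such genes, 1 was tested and called as higher, Ifng, which encodes interferon-gamma. It met the filter on low counts through the ox-LDL libraries alone, so its direction was set once it was tested. Ifng had 0, 0, 0, 0 and 5 counts in controls and 31, 168, 48, 56 and 405 in ox-LDL libraries (log2 fold change 7.41 ± 1.20, SE, adjusted p = 8.60e-04 by edgeR), at least 214-fold higher without control replicate 5. Its ratio of summed counts was 164 (95% counting interval 69.8 to 506), and 85.4 (36.2 to 265) without ox-LDL replicate 5. Il17a had 0 counts in every control and 1, 32, 5, 1 and 33 in the ox-LDL libraries. With a floor of 3 counts over the control group, the ratio of summed counts was 27.7, which leaves out the spread between libraries. Il22 likewise had 0 counts in every control and 3, 31, 5, 8 and 41 after treatment, a ratio of 33.9 with that floor. For both genes most of the reads came from ox-LDL replicates 2 and 5, and without ox-LDL replicate 5 the ratio was 18.3 for Il17a and 22.1 for Il22. Tbx21, Eomes, Il17f, Gzmb, Prf1, Il18r1, Il18rap and Il21 had at most 18 counts in any library.

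Markers of lymphocytes were near 0 in both groups. The 10 T and NK cell markers summed to 0.770 to 2.30 CPM in controls and 0.244 to 2.14 CPM in treated libraries (two-sided exact permutation test, p = 0.579), none had enough reads to be tested, and Cd3e held 1 count in all 10 libraries together. B cell markers summed to 0.984 to 2.68 CPM and 1.02 to 2.96 CPM (exact permutation test, p = 0.841). Neutrophil markers summed to 5.86 to 14.6 CPM in controls and 11.6 to 154 CPM in treated libraries (exact permutation test, p = 0.0318), with ox-LDL replicate 2 highest. That sum was nearly all S100a8, the one of the 7 with a row that was tested, which rose from a mean of 10.0 to 68.0 CPM (adjusted p = 0.0031 by edgeR). The other markers did not move with it as a group: Cxcr2 was at a mean of 0.467 CPM in controls and 0.0560 CPM in treated libraries without overlap, S100a9 had 8 and 5 counts in all, Camp had 2 and 45 without overlap, and Mpo, Elane and Ngp had at most 5 counts in any library. Mesothelial and stromal markers summed to 12.4 to 43.4 CPM and 69.9 to 115 CPM without overlap (exact permutation test, p = 0.00794), a sum carried by the stromal genes Dcn (mean 27.1 and 80.4 CPM) and Col1a1 (2.34 and 15.5 CPM), which rose out of 3 tested. The mesothelial markers, none of them tested, did not follow: Upk3b had 54 counts in controls and 8 in treated libraries without overlap, Msln had 11 and 11, and Krt19 had 50 and 44. Of 5 dendritic cell markers tested, Ccr7 and Clec9a rose and 3 did not pass, where 9.4% of all genes tested rose. Ccr7 is also a gene that activated macrophages make. In controls Ccr7 and Clec9a were at means of 0.16 and 0.32 CPM. Had they been as low in the ox-LDL libraries they would have been left out, so their direction was set once they were tested. Cd209a, a dendritic cell marker that was not tested, went the other way without overlap, with 85 counts in controls and 1 in treated libraries. The part of such cells in the change of any subunit gene was not tested.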

How the data were processed

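Reads were sequenced on a BGISEQ-500. The authors aligned them to mm9 with HISAT2 2.0.5, used SAMtools 1.4 for sorting and StringTie 1.3.3.13 for assembly. They deposited estimated counts per gene, not normalized, of which 13.6% were not whole. The counting tool and its use of strand are not given in the sources used here. A further value deposited per gene was treated as FPKM: the gene length it implied was constant between libraries (median coefficient of variation 0.929% over 4919 genes).

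Of 39488 rows, 9788 circular RNAs were left out. Of the rest, 23382 carried NCBI identifiers, 22818 of them paired with a symbol, and 6318 had no NCBI identifier. Counts were rounded, filtered with filterByExpr, TMM-normalized and tested with edgeR 4.0.16 (robust quasi-likelihood, group as the only term) in R 4.3.3. The threshold of 0.01 is the study's false discovery rate. The study also required an absolute log2 fold change above 2, which was not required here and under which 849 genes were called. The biological coefficient of variation was 37.3%. Single values were compared by two-sided exact permutation over 252 arrangements. The script was tested on simulated data. Positions are from the GENCODE annotation of NCBIM37 (mm9).

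The genes named are the 7 members, the members of the lists by counts, with values for those that passed and for receptor chains, and for each tested member the 3 nearest genes with a mean of at least 1 CPM. Members and lists were chosen with earlier results of these data known. The counts and medians of the lists leave out 2 genes, for which no result is given. Alternatives were library size alone, upper-quartile normalization, other filters and thresholds, limma-voom and limma on log2(FPKM + 1) (limma 3.58.1), DESeq2 1.42.0, the replicate number as a block and each library left out. Leaving out both replicate 5 libraries, ordering FPKM levels without each ox-LDL library, and removing each library's trend on gene length, were added after the data were seen. No 2 libraries of a group were close enough to be a duplicate.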

Additional observations from a re-analysis of the deposited data

Results flagged for a closer look

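A library was marked when the gap to its nearest neighbour was more than 0.71 of the range of its group of 5. Of 26 groups examined 5 held such a library. For normally distributed values chance alone marks about 1 in 20, or 1.3 of 26. CPM values with zeros are not of that kind, and a group with 1 library above 0 always has a share of 1. The 5 marked groups can therefore not be set against 1.3.

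Among controls, replicate 5 was far above the rest for Il12a, at 0.174 CPM against 0 in the others (share of the range 1), and for Il12b, at 0.825 CPM against 0.0553 in the next (0.933). Ox-LDL replicate 5 stood above the other ox-LDL libraries for Il12b, at 182 CPM against 38.4 (0.865). Control replicate 1 was the control with Il23a above 0, at 0.0553 CPM (1), which is a single read. The summed macrophage markers were highest in ox-LDL replicate 2, at 48160 CPM against 18310 in the next ox-LDL library (0.842). No cause was tested for any of these values.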

How the results depend on the processing

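No member gene or partner ratio changed direction, but the balance of all calls did on the scale of log2(FPKM + 1), from 1189 higher and 677 lower to 555 and 750. Il12a, Il12b and Il27 were called as higher in the 19 alternatives that tested them and Il15ra in all 20, and Il15 was not called in any of 20. Il12a, Il12b and Il27 were dropped by a filter of 10 or more counts in each library, which left 2 members called in place of 5.

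Ebi3 was no longer called with upper-quartile normalization (log2 fold change 0.64, adjusted p = 0.0167, edgeR), library size alone (0.61, 0.110), no filter on low counts (0.73, 0.0348), limma on log2(FPKM + 1) (0.53, 0.104) or with both replicate 5 libraries left out (0.61, 0.0316). With single libraries left out its log2 fold change ran from 0.66 to 0.90. Its range of adjusted p over all alternatives was 7.43e-04 to 0.110. The cause was not tested.

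With the replicate number as a block, Ebi3 was at 0.77 (adjusted p = 0.0270, edgeR) and was not called, and all other member calls held. The partner differences were 3.14 and -4.21, with p = 0.0625 in an exact sign-flip test, the smallest that 5 pairs allow. The numbers were not shown to pair the libraries: deviations of same-numbered libraries correlated at 0.0238, -0.272, 0.443, -0.285 and 0.411 for replicates 1 to 5, and 3 of 10 libraries correlated best with their own number. The block moved the count of genes called from 1866 to 1434.

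The count of 1866 became 3009 with DESeq2, 2869 with the gene length trend removed, 3365 at an adjusted p below 0.05, 849 with a log2 fold change beyond 2 as well, and 1262 to 3257 with a library left out, the highest without ox-LDL replicate 2. Of the receptors and transducers 6 were called, but 3 with library size alone, 2 on FPKM and 2 with a log2 fold change beyond 2. Of the transcription factors 7 were called, and 4 with that fold cutoff. Depth limits Il23a, Il23r, Il2rb and the control levels of Il12a and Il12b, where a library held few reads or none.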
